A study of Mus musculus with 12 samples.

Results

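Rab GTPases, the small GTP-binding proteins that direct traffic between the membranes of the cell, were followed in mouse KPC cells treated with cisplatin (Cis). Members were the genes whose symbol is Rab followed by a number and at most 1 letter, and 54 of the 15803 genes with a read in any of the 12 libraries were such genes. KPC is a pancreatic ductal adenocarcinoma (PDAC) line from a mouse with a lox-stop-lox mutant Trp53 allele and Pdx1-Cre, which all groups share as a single tumour line. Ribosome profiling and RNA-seq were each done on 2 libraries of cells without treatment, 2 with Cis for 6 h and 2 with Cis for 21 h. The control cells received PBS according to the study's methods and are called PBS here, for a time the labels do not give. No label ties the libraries to separate cultures, so the p-values measure the spread between these libraries, which may be technical. The same PBS libraries of an assay serve both time points.

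A Rab protein is switched on at a membrane by an exchange factor and is switched off by a GTPase activating protein, and lipid tails added by geranylgeranyl transferase hold it on the membrane. In the GTP-bound state it recruits effectors (motors, tethers and adaptors), and each organelle carries its own Rabs, so that transport from the ER to the Golgi, secretion, endocytosis, recycling and degradation in lysosomes use different members. In epithelial and pancreatic tumour cells, Rabs are known for carrying integrins, growth factor receptors and secreted proteins to and from the cell surface.

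Footprints are the RNA fragments that ribosomes protect from RNase I in lysates made with cycloheximide. Their reads measure how much a coding sequence is being translated relative to the other coding sequences of the library. Levels are RPKM of a representative transcript of each gene (reads per kilobase of coding sequence for footprints or of transcript for RNA, set against the reads of the library), scaled between the libraries of an assay. A change common to all genes does not show on this scale, and the study reports inhibited protein synthesis with Cis in a puromycin assay. Rises and falls below are therefore relative to other genes. Footprint libraries held 3375480 to 5204127 reads, of which 9882 to 17687 were from Rabs. RNA libraries held 1985344 to 2901692 reads, with 51.8% to 56.6% of them on Lars2, Tmem38b and Mettl26, and 2948 to 4782 from Rabs. A gene passed the test at a Benjamini-Hochberg adjusted p under 0.05 from limma over all genes with a mean of at least 1 RPKM in the assay. Fold changes are differences of log2(RPKM + 0.5), a scale that understates the change of genes with low values. Among the 54 Rabs, 46 had enough footprints to be tested, 41 enough RNA and 41 both. Rab3b, Rab7b, Rab26, Rab27a and Rab30 were tested in footprints alone, and Rab3c, Rab15, Rab25, Rab36, Rab37, Rab39b, Rab42 and Rab44 were too low in both assays.

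The libraries held the markers of the labelled cell type. All 6 epithelial markers looked for (Krt7, Krt8, Krt18, Krt19, Epcam and Cdh1) were listed, led by Krt8 with 4786 and 4769.7 footprint RPKM in PBS, although Epcam stayed at or below 1.82 footprint RPKM in the 6 footprint libraries. Vim, a mesenchymal marker that carcinoma lines often express, led its list with 3589.8 and 3676 footprint RPKM in PBS, while Col1a1, Col1a2, Pdgfra and Pdgfrb of fibroblasts were near 0. Fn1, also in that list, had 45.1 and 50.1 footprint RPKM in PBS and 44.6 and 42.5 at 21 h, and its RNA was 25.1 and 23.7 in PBS and higher at 21 h, with 33.3 and 35.0. Immune markers summed to at most 10.2 RPKM in any library (a 21 h one), with Cd3e and Ms4a1 at 0 and Cd68 the most abundant. The highest sum was 0.663 RPKM for the endothelial list (led by Pecam1), 6.00 RPKM for acinar markers (Cela1 alone, with Cpa1, Prss1 and Amy2b at 0) and 0.965 RPKM for endocrine markers (Gcg alone, with Ins1, Ins2 and Chga at 0).

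In PBS, a few Rabs gave most of the family's footprints. Rab1a, which acts in transport from the ER to the Golgi, had 1014 and 1042 footprint RPKM, the highest level of the family in both PBS libraries. Rab7, needed for fusion of late endosomes with lysosomes, followed with 574 and 586. Rab11a of recycling endosomes had 483 and 444. Rab10, which brings cargo to the basolateral surface, stood at 387 and 370.0, and Rab18, found on the ER and lipid droplets, at 315 and 294. The 5 most abundant Rabs made up 52.0% and 53.2% of all Rab footprint RPKM in the PBS libraries (49.8% to 53.2% over all footprint libraries, lowest in a 21 h one). These members belong to the ER and Golgi, to late endosomes, to recycling and to secretion, so no single organelle accounts for the most abundant Rabs.

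RNA levels had another order. Rab7 led with 69.0 and 67.9 RNA RPKM in PBS and Rab1a followed with 48.4 and 47.5. Rab18 had 39.7 and 53.4, a pair that overlapped with Rab1a. Rab2a, which acts between the ER and the Golgi, had 39.1 and 43.2, and Rab10 had 34.8 and 38.2. The 5 most abundant Rabs of each library made up 37.9% to 39.8% of Rab RNA RPKM, a smaller share than in footprints. The ratio of footprint to RNA RPKM (translational efficiency, TE) had a median of 6.43 over the 41 Rabs tested in both assays in PBS, beside 3.49 over 9292 genes with both values, and 32 of the 41 lay above that median. Rab27b, which docks secretory vesicles, had a ratio of 24.3 and 21.7 in the PBS libraries, and Rab1a, which overlapped with it, 20.9 and 21.9. Among the 41 Rabs tested in both assays, these were the 2 highest, and Rab43 of the Golgi was the lowest with 0.411 and 0.468. The ratio compares values divided by 2 different lengths and library totals, so it orders genes and is not a number of ribosomes per mRNA.

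Within subfamilies, 1 paralog usually held most of the level. Rab1a made up 89.9% and 89.9% of Rab1a and Rab1b footprint RPKM in the PBS libraries, Rab2a 95.1% and 95.4% of its pair, Rab6a 93.3% and 94.7%, Rab7 99.0% and 99.0% of Rab7 and Rab7b, and Rab27b 94.5% and 91.8% of Rab27a and Rab27b. Levels were shared more evenly among the Rab5 paralogs of early endosomes, where Rab5c had 46.7% and 53.9%, Rab5b 29.2% and 28.0% and Rab5a 24.1% and 18.1%. Rab22a and Rab31, also of early endosomes, split their pair differently in the assays, with Rab31 at 46.3% and 45.0% of the footprints but 73.8% and 77.2% of the RNA. Paralogs share stretches of sequence and how reads that match both were counted is not given in the sources used here, so the split within a pair is uncertain.

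For footprints at 6 h against PBS, 0 of 46 Rabs passed the test in limma, beside 2.04% of the 10383 genes tested. At an unadjusted p under 0.05, 8 Rabs were found (17.4%, beside 21.4% of genes), 7 higher and 1 lower. Limma voom on the recovered reads called 2, Rab11a and Rab21 (4.35%, beside 12.3% of genes), so both shares were below those of all genes. The median log2 fold change of the Rabs was 0.05 (-0.01 without PBS replicate 2), beside -0.01 for all genes. Rab11a footprints were 483 and 444 in PBS, 594 and 563 at 6 h and 355 and 350.2 at 21 h. Both 6 h libraries of Rab11a lay above the other 4, with a difference from PBS of 0.32 ± 0.08 (SE), adjusted p = 0.0764 (0.00932 to 0.320 over the alternatives, lowest by voom). Rab21, which carries integrins into early endosomes, had footprints of 99.7 and 126 in PBS, 156 and 144 at 6 h and 107 and 110.3 at 21 h. Its 6 h libraries also lay above the other 4, with 0.42 ± 0.12 (SE), adjusted p = 0.1003 (0.00931 to 0.346 over the alternatives, lowest by voom).

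In RNA at 6 h against PBS, 0 of 41 Rabs passed the limma test, where the background was 0% of 9443 genes. An unadjusted p under 0.05 was reached by 5 Rabs (12.2%) and 1086 genes (11.5%), and voom called 0 Rabs and 229 genes. The Rab median was -0.04, beside -0.01 for all genes, and it was 0.00 without PBS replicate 1, -0.11 without PBS replicate 2 and 0.01 without 6 h replicate 1. With RPKM as deposited, it was -0.10 for Rabs and -0.07 for all genes. The change of TE, tested as the difference between the footprint and the RNA change, passed for 0 of 41 Rabs at 6 h in limma, beside 0% of 9295 genes. For TE at 6 h, 3 Rabs had an unadjusted p under 0.05 and voom called 0 (7.32% of Rabs at that p, beside 7.64% of genes, and of all genes 710 and 14). Rab11a had the smallest p of these, with RNA of 26.5 and 31.9 in PBS, 24.3 and 20.0 at 6 h and 20.5 and 21.1 at 21 h. Its ratio of footprints to RNA was 18.2 and 13.9 in PBS, 24.5 and 28.1 at 6 h and 17.3 and 16.6 at 21 h. The ratio was higher in both 6 h libraries than in the other 4, but its TE change of 0.71 ± 0.16 (SE), adjusted p = 0.253 did not pass (0.0541 to 0.628 over the alternatives).

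In footprints at 21 h against PBS, 15 of 46 Rabs (32.6%) passed the test, beside 39.1% of 10383 genes, so the share that changed was not above the background. Higher were 3 Rabs (6.52%, beside 18.9% of genes) and lower were 12 (26.1%, beside 20.2%). Without PBS replicate 1, 10 passed, 7 of them lower (beside 28.7% of all genes called), and without PBS replicate 2, 11 passed, 8 of them lower (27.0%). The median log2 fold change was -0.08 for Rabs and 0.01 for all genes, and 14 of 46 Rabs lay above 0, or 19 with RPKM as deposited. This median depended on single libraries, at -0.02 without PBS replicate 1 (with 21 Rabs above 0), -0.22 without PBS replicate 2 and -0.12 without 21 h replicate 2. As deposited, it was -0.04 for Rabs and 0.04 for all genes. Leaving out the scaling moves all genes alike, so the larger count above 0 as deposited is no weaker shift of the Rabs. In RNA at 21 h against PBS, 9 of 41 Rabs (22.0%) passed, beside 23.8% of 9443 genes, again a share near the background. Only Rab33b was higher (2.44% of Rabs, beside 11.6% of genes), and 8 were lower (19.5%, beside 12.2%). These 8 include Rab6b, whose RNA reached the filter of 1 RPKM through its PBS libraries. With RPKM as deposited, 2 Rabs were higher and 6 lower, and by voom 3 were higher and 10 lower (31.7% in all, beside 31.8% of genes). The RNA median was -0.22 for Rabs and 0.02 for all genes, with 12 of 41 Rabs above 0, or 17 as deposited. The RNA median was -0.13 without PBS replicate 1. As deposited, it was -0.14 for Rabs and 0.10 for all genes, so both medians moved up together. Calls in RNA numbered 3 without PBS replicate 1 (beside 11.2% of all genes), 4 without PBS replicate 2 (11.8%), 5 without 21 h replicate 1 (15.8%) and 4 without 21 h replicate 2 (14.1%), so the share of all genes dropped as well.

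Both assays called 7 Rabs at 21 h (Rab1a, Rab2a, Rab6b, Rab11a, Rab31 and Rab32, which were lower, and Rab33b, which was higher), or 46.7% of the footprint calls and 77.8% of the RNA calls. Over all genes, 42.3% of the footprint calls and 76.6% of the RNA calls were shared. For Rab6b, no conclusion is drawn from the RNA call, since its RNA reached the filter of 1 RPKM through its PBS libraries. Of the other 8 Rabs called in footprints, 2 were not tested in RNA and 6 did not pass there. Across the 41 Rabs, the footprint and RNA changes at 21 h had a Pearson r of 0.74 and a Spearman rho of 0.64, and across 9295 genes r was 0.81 and rho 0.74. Points of an assay share its libraries, and genes are not independent replicates.

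**Figure D1:**
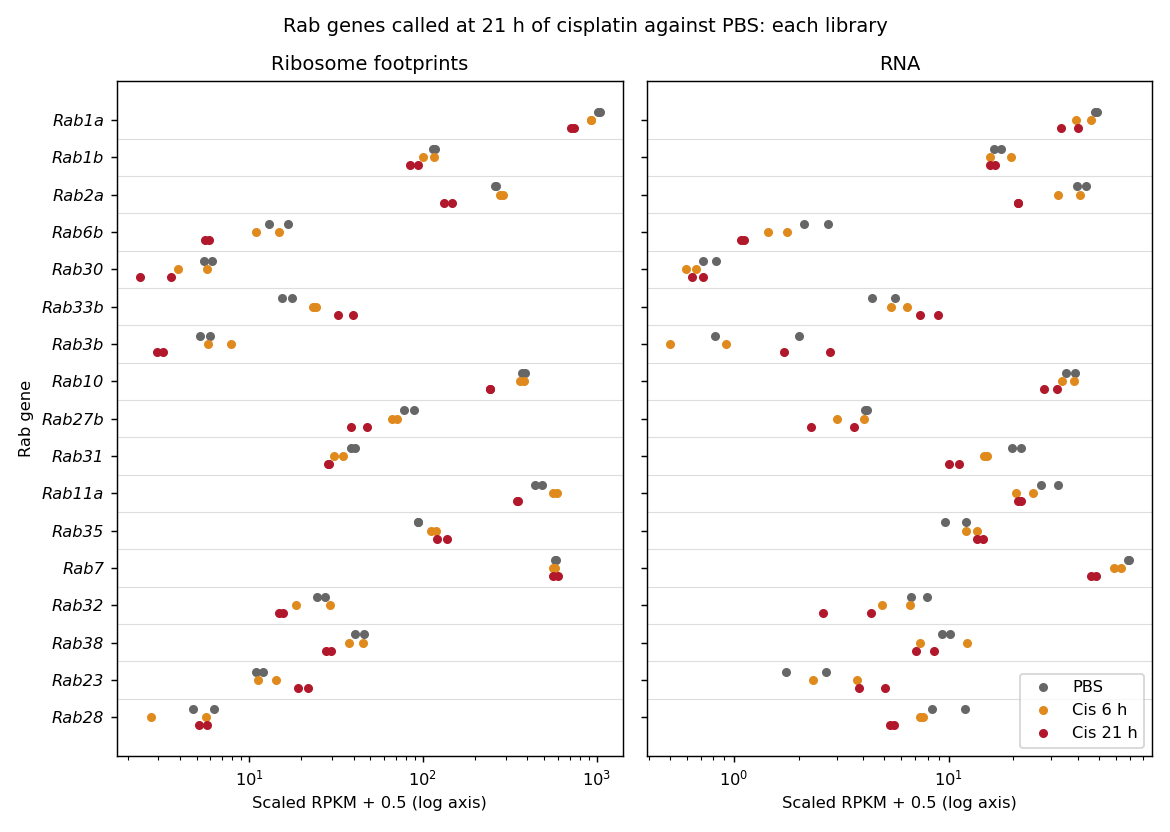
Scaled RPKM + 0.5 on log axes in each library (points) for the 17 Rabs that passed the test at 21 h against PBS in footprints (left) or RNA (right), with PBS in grey, 6 h in orange and 21 h in red. For Rab2a, the 21 h points lie left of all others in both assays, and for Rab33b right of all others.

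Among Rabs of the ER and Golgi, 11 were tested in footprints, of which 1 rose and 5 fell at 21 h (45.5% lower, beside 20.2% of genes), and 10 in RNA, of which 1 rose and 3 fell (30.0% lower, beside 12.2%). With so few members to a role, these shares describe the members and compare no role with another. The 3 that fell in RNA include Rab6b, with the limit given below. Rab2a footprints were 259 and 264 in PBS, 279 and 289 at 6 h and 148 and 132 at 21 h. Rab2a footprints were lower in both 21 h libraries than in the other 4, and the change from PBS to 21 h had the smallest adjusted p of the family (log2 fold change -0.90 ± 0.09 (SE), adjusted p = 0.000146). Rab2a RNA was 39.1 and 43.2 in PBS, 40.4 and 31.6 at 6 h and 20.5 and 20.5 at 21 h. The 2 Rab2a RNA values at 21 h were the lowest of the 6 (log2 fold change -0.99 ± 0.14 (SE), adjusted p = 0.00132). Its paralog Rab2b had footprint RPKM of 13.3 and 12.8 in PBS, 17.7 and 10.5 at 6 h and 16.8 and 15.2 at 21 h and did not pass (log2 fold change 0.28 ± 0.23 (SE), adjusted p = 0.353). The footprint share of Rab2a within the pair was 89.8% and 89.7% at 21 h, below that of both PBS libraries. Rab1a footprints were 1014 and 1042 in PBS, 932 and 923 at 6 h and 745 and 714 at 21 h. For Rab1a footprints, the 21 h libraries lay below the other 4 (log2 fold change -0.49 ± 0.07 (SE), adjusted p = 0.000961). Rab1a RNA was 48.4 and 47.5 in PBS, 38.5 and 45.5 at 6 h and 39.7 and 32.7 at 21 h. Rab1a RNA was lower in both 21 h libraries than in PBS and overlapped between 21 h and 6 h (log2 fold change -0.41 ± 0.13 (SE), adjusted p = 0.0489), and the RNA call was lost at adjusted p 0.0518 with a pseudocount of 0.1, 0.0857 with no filter on low values, 0.0926 with RPKM as deposited, 0.154 without the trend, 0.0655 with the replicate number as a block, 0.177 without PBS replicate 1, 0.147 without PBS replicate 2 and 0.254 without 21 h replicate 2 (range over the alternatives 0.00245 to 0.254). Rab1b, the other ER-to-Golgi paralog, had footprints of 114 and 118 in PBS, 116 and 100.3 at 6 h and 93.8 and 84.0 at 21 h. The 2 Rab1b footprint values at 21 h were the lowest of the 6 (log2 fold change -0.38 ± 0.11 (SE), adjusted p = 0.0210). The Rab1b call was lost at adjusted p 0.0705 without the trend, 0.0575 without PBS replicate 1, 0.0888 without PBS replicate 2 and 0.111 without 21 h replicate 2 (range over the alternatives 0.0142 to 0.111).

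Rab6b, a paralog of the Golgi Rab6a that is best known from neurons, had the largest fall of the family in footprints, with RPKM of 16.2 and 12.6 in PBS, 14.3 and 10.4 at 6 h and 5.11 and 5.41 at 21 h. For Rab6b footprints, the 21 h libraries lay below the other 4 (log2 fold change -1.36 ± 0.21 (SE), adjusted p = 0.00138). Rab6b RNA was 1.63 and 2.23 in PBS, 0.944 and 1.26 at 6 h and 0.576 and 0.611 at 21 h, from 20 and 33 reads in PBS and 7 and 7 at 21 h. Rab6b RNA was lower in both 21 h libraries than in the other 4 (log2 fold change -1.14 ± 0.34 (SE), adjusted p = 0.0346), on few reads. Its mean reached the filter of 1 RPKM through its PBS libraries, since both 21 h values and 0.944 at 6 h were below 1. The level in PBS thus helped decide that Rab6b RNA was tested, and no conclusion is drawn from its RNA p-values. The Rab6b call was lost at adjusted p 0.0522 with no filter on low values, 0.0964 without PBS replicate 1, 0.210 without PBS replicate 2, 0.108 without 21 h replicate 1 and 0.106 without 21 h replicate 2 (range over the alternatives 0.00584 to 0.210). Rab6a, the abundant paralog, had footprints of 227 and 224 in PBS, 227 and 216 at 6 h and 217 and 179 at 21 h and did not pass (log2 fold change -0.19 ± 0.10 (SE), adjusted p = 0.175). Rab30 of the Golgi had footprint RPKM of 5.64 and 5.03 in PBS, 5.23 and 3.39 at 6 h and 3.05 and 1.85 at 21 h, from 18 and 14 reads in PBS and 7 and 4 at 21 h. The 2 Rab30 footprint values at 21 h were the lowest of the 6 (log2 fold change -1.01 ± 0.30 (SE), adjusted p = 0.0261). The Rab30 call was lost at adjusted p 0.0559 with no filter on low values, 0.117 by limma voom on the recovered reads, 0.126 without PBS replicate 1, 0.0879 without PBS replicate 2 and 0.126 without 21 h replicate 2 (range over the alternatives 0.0165 to 0.126). Rab33b, a Golgi Rab that binds the autophagy protein Atg16l1, moved the other way, with footprints of 17.2 and 15.0 in PBS, 23.8 and 22.8 at 6 h and 32.1 and 38.9 at 21 h. For Rab33b footprints, the 21 h libraries lay above the other 4, the largest rise of the family (log2 fold change 1.11 ± 0.15 (SE), adjusted p = 0.000633). Rab33b RNA was 5.13 and 3.88 in PBS, 5.87 and 4.90 at 6 h and 8.38 and 6.88 at 21 h. Rab33b RNA was higher in both 21 h libraries than in the other 4 (log2 fold change 0.71 ± 0.22 (SE), adjusted p = 0.0459). The Rab33b call was lost at adjusted p 0.0870 with no filter on low values, 0.0623 without the trend, 0.0710 without PBS replicate 1, 0.240 without PBS replicate 2, 0.0507 without 6 h replicate 1, 0.201 without 21 h replicate 1 and 0.0774 without 21 h replicate 2 (range over the alternatives 0.00723 to 0.240). Rab18, among the most abundant Rabs, had 315 and 294 footprint RPKM in PBS and 325 and 305 at 21 h and did not pass (log2 fold change 0.05 ± 0.08 (SE), adjusted p = 0.675).

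Of 11 Rabs of secretion and polarised delivery tested in footprints, 3 fell (27.3%, beside 20.2% of genes) and 8 did not pass at 21 h. Rab10 footprints were 387 and 370.0 in PBS, 365 and 381 at 6 h and 245 and 244 at 21 h. The 2 Rab10 footprint values at 21 h were the lowest of the 6 (log2 fold change -0.63 ± 0.08 (SE), adjusted p = 0.000429). Rab10 RNA was 34.8 and 38.2 in PBS, 33.3 and 37.8 at 6 h and 31.3 and 27.2 at 21 h, a difference from PBS that did not pass although its adjusted p was the smallest of the 8 secretory Rabs tested in RNA (log2 fold change -0.31 ± 0.13 (SE), adjusted p = 0.104). Rab27b footprints were 89.0 and 77.9 in PBS, 70.8 and 65.9 at 6 h and 38.2 and 47.4 at 21 h. For Rab27b footprints, the 21 h libraries lay below the other 4 (log2 fold change -0.96 ± 0.13 (SE), adjusted p = 0.000751), whereas its RNA, at 3.66 and 3.59 in PBS, 2.52 and 3.53 at 6 h and 1.79 and 3.11 at 21 h, did not pass (log2 fold change -0.52 ± 0.30 (SE), adjusted p = 0.233). Rab3b, a Rab of regulated exocytosis, had footprint RPKM of 4.74 and 5.44 in PBS, 5.28 and 7.33 at 6 h and 2.72 and 2.47 at 21 h, from 17 and 17 reads in PBS and 7 and 6 at 21 h. Rab3b footprints were lower in both 21 h libraries than in the other 4 (log2 fold change -0.85 ± 0.24 (SE), adjusted p = 0.0220). The Rab3b call was lost at adjusted p 0.164 by limma voom on the recovered reads, 0.0655 without PBS replicate 1, 0.125 without PBS replicate 2 and 0.0732 without 21 h replicate 2 (range over the alternatives 0.0181 to 0.164). Rab8a, which delivers cargo to the plasma membrane and the cilium, was the most abundant member of this role after Rab10, with footprint RPKM of 287 and 269 in PBS, 235 and 236 at 6 h and 309.6 and 239 at 21 h. Its 21 h and PBS libraries overlapped (log2 fold change -0.03 ± 0.12 (SE), adjusted p = 0.854).

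Among early endosomal Rabs, 1 of 8 tested in footprints and 1 of 8 in RNA passed at 21 h. These shares of 12.5% and 12.5% lower stand beside 20.2% and 12.2% of genes. In both assays the member that passed was Rab31, a relative of Rab22a that acts between the trans-Golgi and endosomes. Rab31 RNA was 19.2 and 21.1 in PBS, 14.5 and 14.1 at 6 h and 9.49 and 10.7 at 21 h. The 2 Rab31 RNA values at 21 h were the lowest of the 6 (log2 fold change -0.97 ± 0.15 (SE), adjusted p = 0.00193). Rab31 footprints were 40.1 and 38.1 in PBS, 30.5 and 34.3 at 6 h and 28.1 and 28.4 at 21 h. For Rab31 footprints, the 21 h libraries lay below the other 4 (log2 fold change -0.46 ± 0.12 (SE), adjusted p = 0.0141). The Rab31 call was lost at adjusted p 0.0510 by limma voom on the recovered reads and 0.0721 without PBS replicate 1 (range over the alternatives 0.0127 to 0.0721). The 3 Rab5 paralogs, which build early endosomes, did not pass at 21 h in either assay. Rab5c, the most abundant of them, had footprint RPKM of 174 and 174 in PBS, 185 and 199 at 6 h and 161 and 161 at 21 h (log2 fold change -0.11 ± 0.08 (SE), adjusted p = 0.295). Rab17, an epithelial Rab of polarised traffic, had RNA of 0.667 and 0.555 in PBS, 0.287 and 0.983 at 6 h and 2.25 and 1.67 at 21 h, from 3 and 3 reads in PBS and 10 and 7 at 21 h. Its adjusted p of 0.0679 did not pass, although it passed when either 6 h library was left out. Rab17 RNA cleared the filter of 1 RPKM only through its 21 h libraries, since all PBS and 6 h values were below 1. The change itself thus decided that Rab17 was tested, and no conclusion is drawn from its p-values.

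Of 6 recycling Rabs tested in footprints, 1 rose and 1 fell at 21 h (16.7% each, beside 18.9% of genes higher and 20.2% lower). Rab35, which returns cargo from endosomes to the surface by a fast route and acts on actin, had footprints of 94.0 and 92.8 in PBS, 118 and 111 at 6 h and 121 and 137 at 21 h. Rab35 footprints were higher in both 21 h libraries than in the other 4 (log2 fold change 0.46 ± 0.10 (SE), adjusted p = 0.00631). Its RNA of 9.10 and 11.5 in PBS, 13.0 and 11.5 at 6 h and 13.9 and 13.0 at 21 h did not pass (log2 fold change 0.38 ± 0.17 (SE), adjusted p = 0.142). Rab11a, which marks the slower recycling endosome, had the footprints given above for 6 h, and its 21 h libraries lay below the other 4 (log2 fold change -0.39 ± 0.08 (SE), adjusted p = 0.00502). Rab11a RNA at 21 h was lower than in PBS (log2 fold change -0.47 ± 0.15 (SE), adjusted p = 0.0432). The Rab11a call was lost at adjusted p 0.0738 with no filter on low values, 0.0942 with RPKM as deposited, 0.115 without the trend, 0.0593 with the replicate number as a block, 0.0636 without PBS replicate 1, 0.250 without PBS replicate 2, 0.135 without 21 h replicate 1 and 0.113 without 21 h replicate 2 (range over the alternatives 0.00640 to 0.250). Its paralog Rab11b, at footprint RPKM of 165 and 128 in PBS, 142 and 133 at 6 h and 113 and 138 at 21 h, overlapped between PBS and 21 h and did not pass (log2 fold change -0.22 ± 0.14 (SE), adjusted p = 0.250). Rab14, which works between the Golgi and endosomes, had footprint RPKM of 241 and 232 in PBS, 259 and 255 at 6 h and 253 and 248 at 21 h and did not pass (log2 fold change 0.08 ± 0.08 (SE), adjusted p = 0.418).

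Late endosomal, lysosomal and autophagic Rabs fell in 2 of 7 tested in footprints at 21 h (28.6%, beside 20.2% of genes) and in 2 of 6 in RNA (33.3%, beside 12.2%). Rab7 passed in RNA and not in footprints. Its RNA was 69.0 and 67.9 in PBS, 58.4 and 63.1 at 6 h and 47.9 and 45.7 at 21 h. The 2 Rab7 RNA values at 21 h were the lowest of the 6 (log2 fold change -0.54 ± 0.10 (SE), adjusted p = 0.00421). Its footprints were 574 and 586 in PBS, 561 and 576 at 6 h and 596 and 562 at 21 h. The footprint libraries of the 3 groups overlapped, and footprints did not pass (log2 fold change 0.00 ± 0.07 (SE), adjusted p = 0.988). Rab32, a Rab of lysosome-related organelles, had footprints of 26.8 and 24.2 in PBS, 18.1 and 28.7 at 6 h and 14.3 and 15.2 at 21 h. For Rab32 footprints, the 21 h libraries lay below the other 4 (log2 fold change -0.77 ± 0.20 (SE), adjusted p = 0.0171). The Rab32 call was lost at adjusted p 0.0924 without PBS replicate 1, 0.0548 without PBS replicate 2 and 0.0625 without 21 h replicate 1 (range over the alternatives 0.00524 to 0.0924). Rab32 RNA was 7.39 and 6.14 in PBS, 4.40 and 6.07 at 6 h and 2.11 and 3.86 at 21 h. Rab32 RNA was lower in both 21 h libraries than in the other 4 (log2 fold change -1.10 ± 0.29 (SE), adjusted p = 0.0213). The Rab32 call was lost at adjusted p 0.0588 with no filter on low values, 0.0516 without the trend, 0.129 without PBS replicate 1, 0.0656 without PBS replicate 2 and 0.119 without 21 h replicate 1 (range over the alternatives 0.00628 to 0.129). Rab38, the paralog of Rab32 in the same organelles, had footprints of 40.1 and 45.6 in PBS, 37.2 and 44.7 at 6 h and 28.9 and 27.1 at 21 h. The 2 Rab38 footprint values at 21 h were the lowest of the 6 (log2 fold change -0.60 ± 0.13 (SE), adjusted p = 0.00757). The Rab38 call was lost at adjusted p 0.0560 without PBS replicate 2 (range over the alternatives 0.00590 to 0.0560). Rab9, which returns receptors from late endosomes to the trans-Golgi, had footprint RPKM of 66.8 and 49.7 in PBS, 44.7 and 56.7 at 6 h and 52.0 and 50.4 at 21 h and did not pass (log2 fold change -0.17 ± 0.16 (SE), adjusted p = 0.441).

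The remaining Rabs hold 2 with changes. Rab23, a regulator of Hedgehog signalling and ciliary traffic, had footprints of 11.5 and 10.5 in PBS, 13.7 and 10.8 at 6 h and 21.3 and 18.6 at 21 h. For Rab23 footprints, the 21 h libraries lay above the other 4 (log2 fold change 0.83 ± 0.17 (SE), adjusted p = 0.00579). Rab23 RNA was 2.17 and 1.25 in PBS, 1.82 and 3.23 at 6 h and 4.58 and 3.34 at 21 h, from 23 and 16 reads in PBS and 48 and 33 at 21 h. Rab23 RNA was higher in both 21 h libraries than in the other 4, but the RNA difference of 1.03 ± 0.34 (SE), adjusted p = 0.0521 did not pass (0.00125 to 0.267 over the alternatives, with 0.0389 without 6 h replicate 1, 0.0421 without 6 h replicate 2, 0.0492 with a pseudocount of 1, 0.0343 with RPKM as deposited and the lowest by voom). Rab28, known from photoreceptors and cilia, had RNA of 11.5 and 7.87 in PBS, 7.07 and 6.88 at 6 h and 5.04 and 4.81 at 21 h. The 2 Rab28 RNA values at 21 h were the lowest of the 6 (log2 fold change -0.88 ± 0.21 (SE), adjusted p = 0.0160). The Rab28 call was lost at adjusted p 0.134 without PBS replicate 1, 0.0510 without 21 h replicate 1 and 0.0680 without 21 h replicate 2 (range over the alternatives 0.0129 to 0.134). Its footprints, at 5.76 and 4.29 in PBS, 5.12 and 2.22 at 6 h and 5.21 and 4.67 at 21 h, overlapped between PBS and 21 h (log2 fold change -0.01 ± 0.34 (SE), adjusted p = 0.984).

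**Figure D2:**
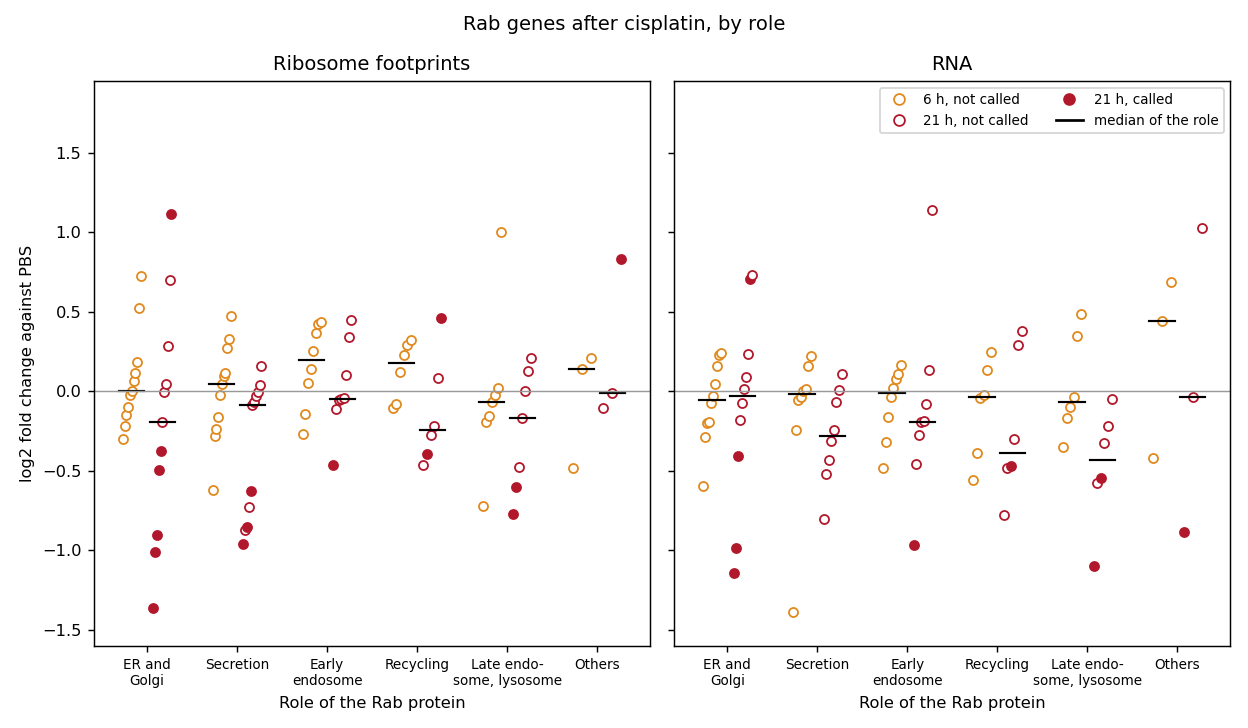
Log2 fold change against PBS of every tested Rab in footprints (left, 46 Rabs) and RNA (right, 41), by role, at 6 h (orange) and 21 h (red), with filled points for Rabs that passed the test and a black line at the median of the role. No 6 h point is filled, and the filled 21 h points lie mostly below 0 in both assays.

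Whether the levels differed between 21 h and 6 h was tested directly. In footprints at 21 h against 6 h, 14 of 46 Rabs (30.4%) passed, beside 30.7% of 10383 genes, a share near the background. Of these, 2 were higher (4.35%, beside 15%) and 12 lower (26.1%, beside 15.7%), and the median was -0.17 for Rabs and 0.00 for all genes. This comparison shares its 21 h libraries with the one against PBS. Rab6b, Rab2a, Rab11a, Rab27b and Rab10, with the levels given above, passed under every alternative. Rab2a had -1.02 ± 0.09 (SE), adjusted p = 0.000171. Rab11a, whose 6 h libraries were the highest, had -0.71 ± 0.08 (SE), adjusted p = 0.000550. Rab6b had -1.14 ± 0.21 (SE), adjusted p = 0.00487, Rab27b -0.68 ± 0.13 (SE), adjusted p = 0.00585 and Rab10 -0.61 ± 0.08 (SE), adjusted p = 0.000952. Rab3b had -1.12 ± 0.24 (SE), adjusted p = 0.00945. The Rab3b call was lost at adjusted p 0.0806 by limma voom on the recovered reads and 0.0780 without 6 h replicate 2 (range over the alternatives 0.00927 to 0.0806).

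The calls of the other members between 6 h and 21 h were each lost in some settings. Rab27a, the paralog of Rab27b that docks secretory granules, had footprint RPKM of 5.18 and 6.93 in PBS, 8.65 and 4.89 at 6 h and 2.40 and 3.82 at 21 h, from 27 and 11 reads at 6 h and 6 and 9 at 21 h. Its 21 h libraries lay below those at 6 h (log2 fold change -0.99 ± 0.32 (SE), adjusted p = 0.0461). The Rab27a call was lost at adjusted p 0.0970 with no filter on low values, 0.0806 without the trend, 0.0628 with the replicate number as a block, 0.0895 by limma voom on the recovered reads, 0.0663 without PBS replicate 1, 0.0681 without PBS replicate 2, 0.266 without 6 h replicate 1 and 0.186 without 21 h replicate 1 (range over the alternatives 0.0339 to 0.266). Rab4b, of fast recycling, had 39.4 and 28.4 in PBS, 34.6 and 44.8 at 6 h and 23.3 and 25.1 at 21 h. For Rab4b footprints, the 21 h libraries lay below the other 4 (log2 fold change -0.69 ± 0.18 (SE), adjusted p = 0.0221). The Rab4b call was lost at adjusted p 0.05001 with no filter on low values, 0.0647 without the trend, 0.147 without 6 h replicate 2, 0.0782 without 21 h replicate 1 and 0.0521 without 21 h replicate 2 (range over the alternatives 0.0154 to 0.147). Rab23 rose between 6 h and 21 h by 0.69 ± 0.17 (SE), adjusted p = 0.0180. The Rab23 call was lost at adjusted p 0.119 without 6 h replicate 2 and 0.0759 without 21 h replicate 1 (range over the alternatives 0.0146 to 0.119). Rab33b was higher in both 21 h libraries than at 6 h (log2 fold change 0.59 ± 0.15 (SE), adjusted p = 0.0167). The Rab33b call was lost at adjusted p 0.0631 without 6 h replicate 1, 0.0895 without 6 h replicate 2 and 0.0833 without 21 h replicate 2 (range over the alternatives 0.0134 to 0.0895). Rab38 was lower at 21 h (log2 fold change -0.53 ± 0.13 (SE), adjusted p = 0.0173). The Rab38 call was lost at adjusted p 0.131 without 6 h replicate 2 and 0.0674 without 21 h replicate 2 (range over the alternatives 0.0136 to 0.131). Rab21, whose 21 h libraries lay below those at 6 h, had -0.46 ± 0.12 (SE), adjusted p = 0.0195. The Rab21 call was lost at adjusted p 0.0728 without the trend, 0.114 without 6 h replicate 1, 0.0638 without 6 h replicate 2, 0.0667 without 21 h replicate 1 and 0.0543 without 21 h replicate 2 (range over the alternatives 0.00245 to 0.114). For Rab1a, lower at 21 h than at 6 h (log2 fold change -0.35 ± 0.07 (SE), adjusted p = 0.00757), the call was lost at adjusted p 0.0631 without the trend, 0.0656 without 6 h replicate 1 and 0.0642 without 6 h replicate 2 (range over the alternatives 0.000907 to 0.0656). Rab5c fell from 6 h to 21 h (log2 fold change -0.25 ± 0.08 (SE), adjusted p = 0.0452). The Rab5c call was lost at adjusted p 0.0625 with RPKM as deposited, 0.135 without the trend, 0.0706 with the replicate number as a block, 0.0534 by limma voom on the recovered reads, 0.0552 without PBS replicate 1, 0.0542 without PBS replicate 2, 0.106 without 6 h replicate 1, 0.264 without 6 h replicate 2, 0.106 without 21 h replicate 1 and 0.115 without 21 h replicate 2 (range over the alternatives 0.0392 to 0.264). The number of calls was 9 without the trend (beside 23.6% of all genes), 6 without 6 h replicate 2 (15.4%) and 9 without 21 h replicate 1 (24.4%).

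In RNA at 21 h against 6 h, 3 of 41 Rabs (7.32%) passed, beside 15.7% of 9443 genes. All 3 were lower (7.32%, beside 8.21% of genes, with 7.53% of genes higher), and with RPKM as deposited 1 Rab was higher and 2 lower. Leaving out the scaling moved the median of all genes in this comparison from 0.01 to 0.15 and that of the Rabs from -0.21 to -0.06. Rab2a fell under every alternative (log2 fold change -0.79 ± 0.14 (SE), adjusted p = 0.00615). Rab24, a Rab linked to autophagy, had RNA of 6.97 and 5.51 in PBS, 8.54 and 9.24 at 6 h and 3.53 and 4.49 at 21 h. Rab24 RNA was lower in both 21 h libraries than in the other 4, and the 6 h libraries were the highest (log2 fold change -1.07 ± 0.21 (SE), adjusted p = 0.0106). The Rab24 call was lost at adjusted p 0.0521 by limma voom on the recovered reads, 0.0550 without 6 h replicate 2 and 0.0546 without 21 h replicate 1 (range over the alternatives 0.00754 to 0.0550). Rab7 RNA was lower at 21 h than at 6 h (log2 fold change -0.37 ± 0.10 (SE), adjusted p = 0.0314). The Rab7 call was lost at adjusted p 0.158 with RPKM as deposited, 0.153 without the trend, 0.0571 without PBS replicate 1, 0.0581 without PBS replicate 2, 0.0618 without 6 h replicate 1, 0.135 without 6 h replicate 2, 0.0689 without 21 h replicate 1 and 0.121 without 21 h replicate 2 (range over the alternatives 0.0109 to 0.158).

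At 21 h, the TE change passed for 0 of 41 Rabs in limma, beside 0.409% of 9295 genes. An unadjusted p under 0.05 was reached by 4 Rabs, 2 higher and 2 lower (9.76%, beside 12.7% of genes), and voom called 1, Rab7 (2.44%, beside 1.62%). The Rab7 ratio of footprints to RNA was 8.31 and 8.63 in PBS, 9.62 and 9.13 at 6 h and 12.4 and 12.3 at 21 h. Both 21 h libraries had a higher Rab7 ratio than the other 4, and the TE change was 0.54 ± 0.11 (SE), adjusted p = 0.0636 (0.0175 to 0.256 over the alternatives, under 0.05 by voom and with a mean of at least 5 RPKM). The ratio of Rab31, also higher at an unadjusted p under 0.05, was 2.09 and 1.80 in PBS, 2.10 and 2.43 at 6 h and 2.97 and 2.66 at 21 h. That of Rab6a, lower, was 9.13 and 9.33 in PBS, 9.34 and 9.83 at 6 h and 7.07 and 6.64 at 21 h. For Rab10, also lower, the ratio was 11.1 and 9.70 in PBS, 10.9 and 10.1 at 6 h and 7.82 and 8.96 at 21 h. The median TE change of the 41 Rabs was 0.08 with 25 above 0, beside -0.04 for all genes, and with a library left out it ran from -0.03 (without PBS footprint replicate 2) to 0.14 (without PBS footprint replicate 1). A TE change that misses the threshold does not show that footprints and RNA moved alike.

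Summed over the family, Rab footprint RPKM was 5327 and 5146 in PBS, 5369.9 and 5302 at 6 h and 4529.9 and 4375 at 21 h. Both 21 h libraries lay below the other 4, and their mean was 85.0% of the PBS mean, or 87.2% with RPKM as deposited. Rab RNA RPKM summed to 618 and 628 in PBS, 599 and 603 at 6 h and 544 and 519 at 21 h, so the 21 h libraries were again the lowest, with a mean of 85.2% of PBS. As deposited, RNA sums at 6 h were 575 and 581 (92.0% of PBS) and at 21 h 567 and 568 (90.3%), so the step from 6 h to 21 h in RNA was smaller without the scaling. With 2 libraries against 2, an exact permutation test of a sum cannot give a two-sided p under 0.333. The summed epithelial markers were lower at 21 h, with 9715 and 9278 footprint RPKM in PBS, 9321 and 9258 at 6 h and 6555 and 6724 at 21 h, and the mesenchymal list, mostly Vim, with 3635 and 3727, 3886 and 3821 and 2914 and 2864. Not every epithelial marker followed the sum, since Krt18 footprints were 1708 and 1600.0 in PBS and 1633 and 1825 at 21 h, which overlap, and Krt18 RNA was 427 and 414 in PBS and 522 and 488 at 21 h, both higher. Some markers of other cells were higher at 21 h, on low values, with immune footprint sums of 2.05 and 2.39 in PBS and 10.2 and 3.70 at 21 h and Cela1 footprints of 1.67 and 3.29 in PBS and 5.99 and 6.00 at 21 h, although Cela1 RNA, at 2.21 and 2.75 in PBS and 2.23 and 0.394 at 21 h, was not. Cd68 RNA was 0.404 and 1.01 in PBS and 2.04 and 3.90 at 21 h. The part of these markers in the result was not tested. In bulk libraries, fewer cells of a kind and less RNA per cell cannot be told apart.

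Rab genes differ widely in genomic span, from 2.76 kb for Rab24 to 227 kb for Rab3c in the RefSeq annotation on GRCm38.p6. Across the 41 Rabs tested in RNA, the RNA change at 21 h had a Spearman rho with span of -0.36 and a Pearson r with log2 span of -0.28, beside -0.37 and -0.43 across 9396 genes with a span. The Rab rho was -0.18 with no filter on low values and -0.49 at a mean of at least 5 RPKM, settings at which the relation over all genes was not computed. Footprints at 21 h gave a rho of -0.38 over 46 Rabs and -0.49 over 10338 genes. All points share the same libraries. In RNA, 8 tested Rabs span at least 50 kb (limits chosen after the values were seen), and 4 of them fell and the other 4 did not pass, beside 739 of 2360 genes of that span that fell (31.3%) and 43 that rose. Their median log2 fold change was -0.70, beside -0.41 for these genes. The 15 Rabs under 20 kb had a median of -0.05, beside 0.16 for 4345 genes, and the 18 in between -0.19, beside 0.08 for 2691 genes. Each of these bins holds fewer than 20 Rabs. The 4 Rabs of at least 50 kb that fell in RNA include Rab6b, which reached the filter of 1 RPKM through its PBS libraries. Rab32, at 13.2 kb, fell although it is short, and its paralog Rab38, at 61.3 kb, fell in footprints, while Rab8b, at 76.1 kb, did not pass in either assay.

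**Figure D3:**
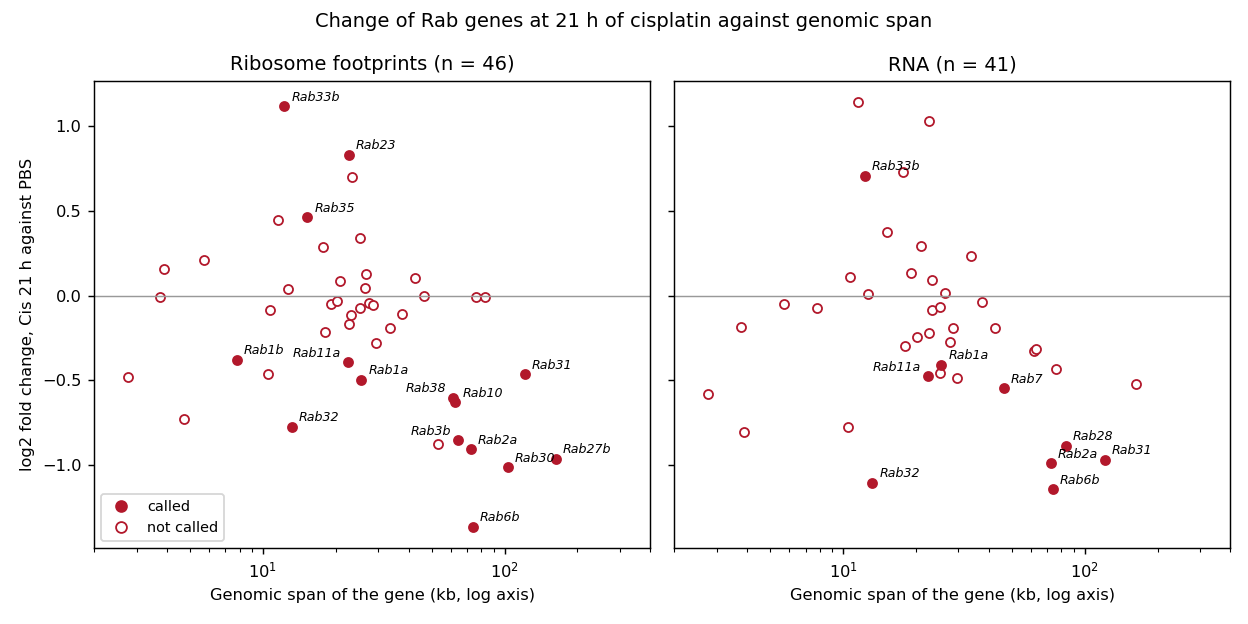
Log2 fold change at 21 h against PBS (vertical axis) by genomic span in kb (horizontal log axis) for footprints (left, 46 Rabs) and RNA (right, 41), with filled, named points for Rabs that passed the test. In RNA, the 8 Rabs of 50 kb and more all lie below 0 with scaled RPKM.

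Proteins that act on Rabs were examined next, in footprints at 21 h against PBS, where 39.1% of all genes passed. Rabggtb, the catalytic subunit of Rab geranylgeranyl transferase, had footprints of 97.0 and 115 in PBS, 119.8 and 125 at 6 h and 157 and 159.7 at 21 h. The 2 Rabggtb footprint values at 21 h were the highest of the 6 (log2 fold change 0.58 ± 0.10 (SE), adjusted p = 0.00266). Among 29 exchange factors, 2 rose and 8 fell (beside 18.9% and 20.2% of genes), with a median of -0.35. Rabgef1, which activates Rab5, rose, with footprints of 23.7 and 22.1 in PBS, 23.5 and 27.0 at 6 h and 41.3 and 44.0 at 21 h (log2 fold change 0.88 ± 0.13 (SE), adjusted p = 0.000985). Sbf2, a DENN and myotubularin-related protein, fell most in this list, with 5.03 and 5.26 in PBS, 4.20 and 4.73 at 6 h and 0.473 and 0.451 at 21 h (log2 fold change -2.55 ± 0.26 (SE), adjusted p = 0.000184). In RNA at 21 h, 4 of 29 exchange factors passed, all of them lower, beside 12.2% of genes lower and 23.8% passing in all. The share that was lower was near the background, and the share that passed was below it.

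Of 31 GTPase activating proteins tested in footprints, 2 rose and 5 fell at 21 h, with a median of -0.16. Beside 18.9% of genes higher and 20.2% lower, neither share was above the background. The 2 that rose were Tbc1d10a (log2 fold change 0.76 ± 0.24 (SE), adjusted p = 0.0339) and Sgsm3 (0.67 ± 0.20 (SE), adjusted p = 0.0280). Tbc1d5, which acts on Rab7 with retromer, had footprints of 19.2 and 19.5 in PBS, 9.39 and 10.6 at 6 h and 0.423 and 0.448 at 21 h. For Tbc1d5 footprints, the 21 h libraries lay below the other 4 and the 6 h libraries lay below both PBS libraries (log2 fold change -4.41 ± 0.20 (SE), adjusted p = 0.00000577 at 21 h, from 4 reads in each 21 h library). Tbc1d5 RNA was 2.91 and 3.62 in PBS, 1.54 and 2.46 at 6 h and 0.346 and 0.275 at 21 h (log2 fold change -2.21 ± 0.33 (SE), adjusted p = 0.00168), from 4 and 3 reads at 21 h. Its TE change passed (log2 fold change -2.20 ± 0.34 (SE), adjusted p = 0.0313) on these few reads, but without the trend 0 of all genes passed for TE at 21 h. Rabgap1l fell too, with footprints of 7.49 and 9.03 in PBS, 6.60 and 5.79 at 6 h and 0.869 and 1.04 at 21 h (log2 fold change -2.59 ± 0.23 (SE), adjusted p = 0.000116). Of 28 effectors, 7 passed, all of them lower, with a median of -0.14. Over all genes, 20.2% were lower and 39.1% passed, so the share of effectors that passed was below the background. Sytl5, which binds Rab27, had footprints of 9.63 and 7.94 in PBS, 5.26 and 5.35 at 6 h and 1.41 and 1.74 at 21 h. Sytl5 footprints were lower in both 21 h libraries than in the other 4 (log2 fold change -2.16 ± 0.23 (SE), adjusted p = 0.000225). Micall2, an effector of Rab13 at cell junctions, had 7.25 and 5.92 in PBS, 5.12 and 4.68 at 6 h and 1.84 and 2.98 at 21 h (log2 fold change -1.31 ± 0.26 (SE), adjusted p = 0.00493). In RNA at 21 h, 4 of 26 activating proteins and 2 of 24 effectors passed, all lower, where 23.8% of all genes passed and 12.2% were lower.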

How the data were processed

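The values analysed were the RPKM that the authors deposited, 1 table per library, made by the submitters with cutadapt, STAR and GRCm39 according to their processing notes, with the length being that of the coding sequence in footprint tables and of the transcript in RNA tables. Whole reads were recovered from RPKM and length. Libraries of an assay were put on a common scale with median-of-ratios factors, and values were taken as log2(RPKM + 0.5). Genes with a mean of at least 1 scaled RPKM were fitted with limma 3.58.1 (trended empirical Bayes) in R 4.3.3, with the 3 groups of an assay together, and p was adjusted by Benjamini-Hochberg over all genes of a comparison. The change in TE was the difference between the footprint and the RNA change in a joint fit of all 12 libraries. The fit was tested on simulated data, but the outcome is not given here and no result rests on it. Tables and plots used Python 3.11.15, numpy 2.4.6, pandas 2.3.3 and matplotlib 3.10.9.

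Members are genes whose symbol is Rab, a number and at most 1 letter. The members, their roles and the lists of partner genes were chosen with earlier results of these data known. Genomic spans came from the RefSeq table on GRCm38.p6 and were used as lengths only. Alternatives were pseudocounts of 0.1 and 1, no filter, a filter at 5 RPKM, RPKM as deposited, no trend, a replicate block, voom on whole reads, and each library left out in turn. The alternatives for the summed levels by library, the summed RNA and the relation to span, 4 in all, were added after the data had been seen.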

Additional observations from a re-analysis of the deposited data

Results flagged for a closer look

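In footprints, levels at 21 h differed from those at 6 h in 14 Rabs, tested directly (30.4%, beside 30.7% of all genes), and 9 of these calls were lost under at least 1 alternative. Log2 fold changes were -1.14 for Rab6b, -1.12 for Rab3b, -1.02 for Rab2a, -0.99 for Rab27a, -0.71 for Rab11a, -0.69 for Rab4b, 0.69 for Rab23, -0.68 for Rab27b, -0.61 for Rab10, 0.59 for Rab33b, -0.53 for Rab38, -0.46 for Rab21, -0.35 for Rab1a and -0.25 for Rab5c. In RNA, the same comparison gave -1.07 for Rab24, -0.79 for Rab2a and -0.37 for Rab7. Rab2a was the only member in both lists.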

How the results depend on the processing

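For footprints at 6 h against PBS, limma voom called 2 Rabs (4.35%, beside 12.3% of all genes) where the fit used here called 0. For footprints at 21 h against 6 h, 9 Rabs were called without the trend and 6 to 13 with a library left out, not all of them among the 14 of the full fit. For RNA at 21 h against PBS, 4 were called with no filter (beside 12.1% of genes), 5 without the trend (17.0%), 13 by voom (31.8%) and 3 to 11 with a library left out, beside 9. Lower calls in footprints at 21 h against PBS numbered 12, but 7 without PBS replicate 1 and 8 without PBS replicate 2. The TE change at 21 h passed for 1 Rab with a mean of at least 5 RPKM and for 1 by voom, beside 0. When a library was left out, the lone library of its group was assumed to vary like the other groups. No Rab that passed reversed direction in any alternative.

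The rho of the RNA change with span was -0.18 with no filter and -0.49 at a mean of at least 5 RPKM. With RPKM as deposited, summed levels at 21 h were 87.2% of PBS in footprints and 90.3% in RNA.

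With a replicate block, 15 Rabs were called in footprints at 21 h against PBS, 12 at 21 h against 6 h, and in RNA 7 and 3. Replicates of different groups share only a number, and differences between replicates 1 and 2 correlated between groups, across 5575 genes, at r of -0.08 to 0.08.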
